A study of Caenorhabditis elegans with 2 samples.

Results

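A divergent promoter region lies between the starts of a minus-strand gene on its left and a plus-strand gene on its right, so that both genes are transcribed away from it. Of the 8748 nuclear DAF-16 peaks that met the cutoff on the irreproducible discovery rate (IDR), which scores how alike a peak ranks in both replicates, 822 had their summit in such a region (9.40%, 95% Wilson interval 8.80% to 10.03%). A peak was counted when 2 protein-coding genes arranged in this way had their annotated starts within reach, at most 1000 bp downstream or 300 bp upstream of the summit in each gene's own direction. These 822 divergent peaks were set against 3871 other promoter peaks, whose summits met the same limits without such a pair, and 4055 peaks outside protein-coding promoters. Of the other promoter peaks, 7 lay within reach of starts on both strands whose order was not divergent.

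The peaks came from chromatin immunoprecipitation and sequencing of DAF-16 in whole L4 larvae, in 1 group of 2 biological replicates. The sex of the larvae is given as males and females pooled. The strain, XE1464, is listed with unc-119(ed3) III and with a stably expressed DAF-16 that carries GFP and FLAG at its C-terminus, and the antibody is labelled daf-16. There was no treated or mutant group, so the data give where DAF-16 was found at one stage, not how its binding changed. Whole larvae mix all tissues, and the labels do not say how the cultures of the replicates were separated. The files hold no read counts, so the depth is unknown. Signal means the score that the authors deposited for each peak, whose scale is not stated and which ranks peaks within a list only. All intervals are at 95%, cover counting error only and treat peaks, gene pairs and gaps as independent.

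DAF-16 is the FOXO transcription factor of Caenorhabditis elegans and the main nuclear effector of insulin-like signalling. Its forkhead domain binds the DAF-16 binding element (DBE), and many genes that respond to it carry the DAF-16 associated element (DAE), a GATA-containing sequence bound by other factors such as PQM-1. The compact worm genome places many gene starts back to back, and a single bound site in such a region lies upstream of both genes. Many worm genes are trans-spliced, so an annotated start can lie downstream of the position where transcription begins.

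The sequences below, read from the RefSeq genome of WBcel235 (ce11) on the plus strand and 75 bp to each side of the summit, show the range of motif content at divergent peaks. They were chosen after the values were seen, and the windows lie outside the annotated exons of protein-coding genes, although the icl-1 window touches an exon of a non-coding gene. Capitals mark the DBE (GTAAACA), the DAE (CTTATCA) and the GATA site TGATAA on either strand, and in the last window the heat shock element TTCNNGAA. The DAE contains the reverse complement of TGATAA, so every window with a DAE also counts as one with a GATA site. The strongest divergent peak, between H12C20.7 and nhr-68 (chrV:11573033-11573183), held a GATA site in the left part of its window. The windows between T10C6.15 and ZK285.2 (chrV:16046015-16046165) and between cyp-33C6 and cyp-33C7 (chrV:2250197-2250347) each held a DBE, the first of them together with GATA sites. That between fbxa-134 and F47H4.2 (chrV:17352949-17353099) held a DAE, that between icl-1 and srh-2 (chrV:728089-728239) a DBE and that between C10C6.13 and wht-2 (chrIV:11470105-11470255) both elements. The window upstream of sod-3 (chrX:17092545-17092695) held a DBE. The windows between rpl-20 and Y17G9B.5 (chrIV:4750005-4750155) and between the histone genes his-61 and his-62 (chrIV:7486319-7486469) held none of the 3 motifs, and that between hsp-16.2 and hsp-16.41 (chrV:1805012-1805162) held a heat shock element.
H12C20.7/nhr-68: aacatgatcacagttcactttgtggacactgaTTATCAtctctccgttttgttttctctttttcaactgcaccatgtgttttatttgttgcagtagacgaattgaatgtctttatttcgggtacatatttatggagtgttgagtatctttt
T10C6.15/ZK285.2: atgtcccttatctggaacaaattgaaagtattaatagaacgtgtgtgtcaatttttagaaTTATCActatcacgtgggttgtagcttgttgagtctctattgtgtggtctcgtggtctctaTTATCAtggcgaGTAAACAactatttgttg
cyp-33C6/cyp-33C7: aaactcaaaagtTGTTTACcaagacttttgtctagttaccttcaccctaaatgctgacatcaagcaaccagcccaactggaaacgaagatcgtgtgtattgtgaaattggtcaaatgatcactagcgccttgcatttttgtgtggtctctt
fbxa-134/F47H4.2: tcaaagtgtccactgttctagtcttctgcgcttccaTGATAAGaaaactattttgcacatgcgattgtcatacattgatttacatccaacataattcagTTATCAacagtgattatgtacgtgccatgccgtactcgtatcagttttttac
icl-1/srh-2: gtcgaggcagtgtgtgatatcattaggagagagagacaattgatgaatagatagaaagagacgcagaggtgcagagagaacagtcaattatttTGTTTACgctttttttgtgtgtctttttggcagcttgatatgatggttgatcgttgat
C10C6.13/wht-2: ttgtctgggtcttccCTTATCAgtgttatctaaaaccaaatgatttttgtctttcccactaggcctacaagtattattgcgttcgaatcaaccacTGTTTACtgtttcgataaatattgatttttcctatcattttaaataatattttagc
C08A9.3/sod-3: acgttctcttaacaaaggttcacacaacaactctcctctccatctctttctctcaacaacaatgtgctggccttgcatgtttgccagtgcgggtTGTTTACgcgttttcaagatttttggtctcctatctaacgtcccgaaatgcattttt
rpl-20/Y17G9B.5: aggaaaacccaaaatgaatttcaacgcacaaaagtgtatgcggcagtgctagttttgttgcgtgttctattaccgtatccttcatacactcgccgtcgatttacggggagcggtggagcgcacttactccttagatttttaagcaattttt
his-61/his-62: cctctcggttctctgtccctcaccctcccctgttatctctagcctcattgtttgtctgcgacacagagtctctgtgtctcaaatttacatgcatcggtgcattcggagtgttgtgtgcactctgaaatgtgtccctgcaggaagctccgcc
hsp-16.2/hsp-16.41: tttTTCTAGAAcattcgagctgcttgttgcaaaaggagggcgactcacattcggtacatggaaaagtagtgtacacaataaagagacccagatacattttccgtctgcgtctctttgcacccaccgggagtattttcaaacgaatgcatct

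The strongest divergent peak, second of all nuclear peaks by signal, lay 118 bp upstream of H12C20.7 and 332 bp upstream of nhr-68 (WBGene00003658), a nuclear hormone receptor that takes part in the control of propionate breakdown. Its signal was 1249.5 in the IDR list, 787 in the list of replicate 1 and 463 in that of replicate 2. The next by signal lay between C42D4.13 and srlf-7 (963, with 645 in replicate 1 and 315 in replicate 2). It was followed by the peak between T10C6.15 and ZK285.2 (911, with 530 and 392) and that between C56A3.6 and cav-2, a caveolin gene (863, with 480 and 416). All 20 strongest divergent peaks had a summit in both replicates within 100 bp, and they belonged to 19 gene pairs because maa-1 and C18D11.3 had 2 of them. Among these 20, 7 had a DBE within 75 bp, 9 a GATA site and 6 neither. Of all 822 divergent peaks, 8.52% had a DBE, 27.1% a GATA site and 67.2% neither. In the strongest 20% of all nuclear peaks, a DBE stood at 20.3% of divergent and 18.9% of other promoter summits.

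Some of these 20 peaks joined genes of unlike function, while that between cyp-33C6 and cyp-33C7 joined genes of the same family (538). That between cyn-7, a cyclophilin gene, and bath-36 had a signal of 705, and that between gst-42, a glutathione S-transferase, and D1053.2 had 680. The peak between nxf-1, the messenger RNA export factor, and C15H11.11 had 670, and that between bcmo-2 and F53C3.1 had 614. Ribosomal protein genes appeared with rpl-12 and lin-54, the DNA-binding subunit of the DREAM complex (502), and with rpl-20 and Y17G9B.5 (463). The peak of icl-1, the enzyme of the glyoxylate cycle and a gene activated through DAF-16, lay 160 bp upstream of it and 137 bp upstream of srh-2, a chemoreceptor-family gene (464, with 233 and 267). That between fbxa-108 and dgat-2, a diacylglycerol acyltransferase, lay 40 bp from the F-box gene and 878 bp from dgat-2 (452, with 306 and 171).

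**Figure D1:**
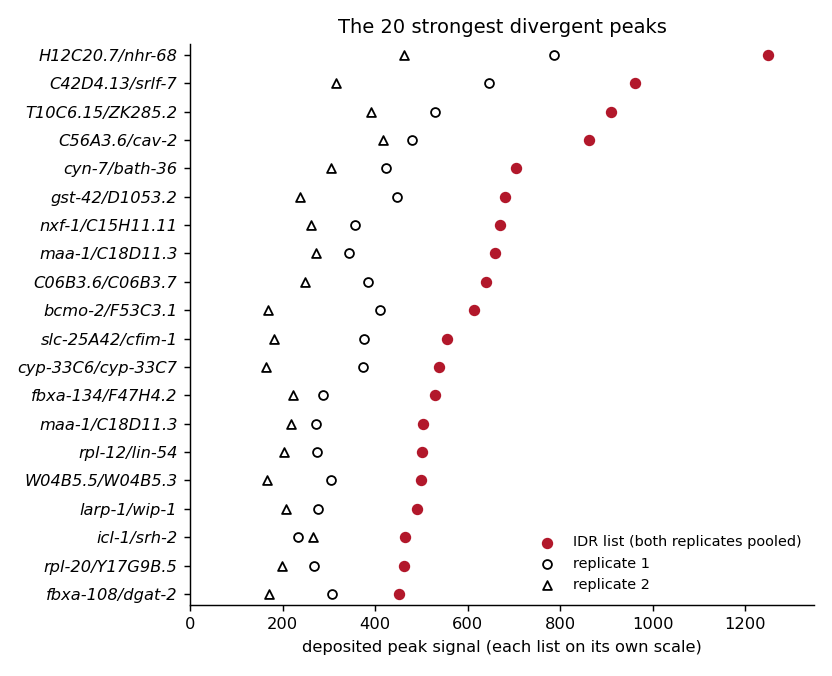
Deposited signal of the 20 strongest divergent peaks (horizontal axis, no stated unit, each list on its own scale) by gene pair, minus-strand gene first. Filled points are the IDR list, open circles replicate 1 and open triangles replicate 2. The peak of H12C20.7 and nhr-68 is highest in all 3 lists, at 1249.5, 787 and 463.

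Divergent peaks were about as strong as other promoter peaks. Their median signal was 105 (interval 100.1 to 113) in the IDR list, against 112.4 (108.7 to 116) for other promoter peaks and 101 (96.9 to 106) for peaks outside promoters. The log2 ratio of the median of divergent peaks to that of other promoter peaks was -0.09, with bounds of -0.21 and 0.06 from the intervals of both medians. Among peaks with a summit in a replicate, the medians of the lists were 57.1 against 64.1 in replicate 1 and 44.8 against 47.9 in replicate 2. Divergent peaks made up 10 of the 100 strongest nuclear peaks and 76 of the 1000 strongest (interval 6.11% to 9.41%). The median signal lay between 100.8 and 119.8 in all 6 classes of distance between the starts, so it followed no clear course with spacing.

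Most divergent peaks had a summit in both replicates. The IDR cutoff already favours peaks that rank alike in both, so the values below are not an independent check of the peaks. A summit lay within 100 bp in both replicate lists for 646 of the 822 (78.6%, interval 75.7% to 81.3%), against 78.8% of other promoter peaks (77.5% to 80.0%). Replicate 2 alone held 107, replicate 1 alone 60 and neither held 9. Of the divergent peaks in the weakest 20% of all nuclear peaks, 65 of 130 were in both replicates, and of those in the strongest 20%, 146 of 148. Over the 646 peaks, the signals of the replicates had a Spearman correlation of 0.713, a description over peaks of the same libraries, against 0.734 over 3050 other promoter peaks.

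Members were spread over all chromosomes but sparse on X. Chromosome X held 50 divergent peaks among 2021 peaks (2.47%, interval 1.88% to 3.25%), while the autosomes held 135 to 179 each, or 9.97% to 14.03% of their peaks. The number of divergent pairs also differed, with 196 on X and 501 to 782 on an autosome. Of the pairs on X, 46 held a peak (23.5%, interval 18.1% to 29.9%), within the range of chromosomes II, IV and V, at 21.99% to 25.6%. On chromosome III the share was 36.7% (184 of 501 pairs, interval 32.6% to 41.03%).

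Divergent promoter regions held a peak in about 1 of 4 cases. The annotation gave 3178 pairs of divergent protein-coding starts within 2000 bp, of which 826 held at least 1 divergent peak, or 26.0% (interval 24.5% to 27.5%). Over the strongest peaks of each replicate, as many as the IDR list holds, the share was 23.2% in replicate 1 and 25.6% in replicate 2. The bound pairs took in 1591 genes of the 5820 that stand in such pairs. Of the 822 peaks, 779 served 1 pair, and 43 lay in reach of more than 2 genes.

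The share was highest at moderate spacing, where the rule also admits the longest stretch for a summit. It was 30.4% (83 of 273) for starts up to 200 bp apart, 39.7% (202 of 509) for those over 200 to 400 bp, and 40.4% (152 of 376) for those over 600 to 800 bp. It was 31.9% over 800 to 1000 bp and 16.05% over 1000 to 1500 bp. At over 1500 to 2000 bp it was 2.98%, where the rule leaves only a narrow strip between the starts that lies within 1000 bp of both. The stretch that meets the limits is also shorter for close starts than at moderate spacing. The shares of all classes are thus set in part by the rule, and the part of the rule was not tested. The starts of divergent peaks were a median of 564 bp apart (interval 523 to 595 bp), from 12 bp between F32D8.14 and F32D8.5 to 1963 bp between stam-1 and hpo-27.

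A count that does not use the promoter limits asked how often the gap between neighbouring protein-coding genes held a summit. Of gaps of 200 to 2000 bp in all orientations, 20.5% held one. Divergent gaps, which have a gene start at both ends, held a summit in 747 of 2250 cases (33.2%, interval 31.3% to 35.2%). Tandem gaps, with a start at one end, did so in 1034 of 5432 (19.04%, 18.01% to 20.1%), and convergent gaps, with none, in 7.06% of 1530 (5.88% to 8.45%). The difference between divergent and tandem gaps was 14.2 percentage points (Newcombe interval 11.97 to 16.39). With the strongest peaks of each replicate it was 11.4 points in replicate 1 (9.24 to 13.6) and 13.96 points in replicate 2 (11.8 to 16.17).

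The difference held in each class of gap length. It was 17.98 points (13.9 to 22.1) at 200 to under 500 bp, 15.6 points (12.1 to 19.3) at 500 to under 1000 bp, 7.14 points (2.39 to 12.1) at 1000 to under 1500 bp and 11.9 points (5.89 to 18.1) at 1500 to 2000 bp. Counted per flanking gene start, divergent gaps did not hold more summits than tandem gaps. They held 845 summits, or 0.188 per start, against 1175 and 0.216 per start in tandem gaps, and with the strongest peaks of each replicate 0.174 against 0.212 in replicate 1 and 0.182 against 0.212 in replicate 2. In the shortest class the values were 0.181 and 0.177 per start, and at 1000 to under 1500 bp they were 0.188 and 0.289.

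**Figure D2:**
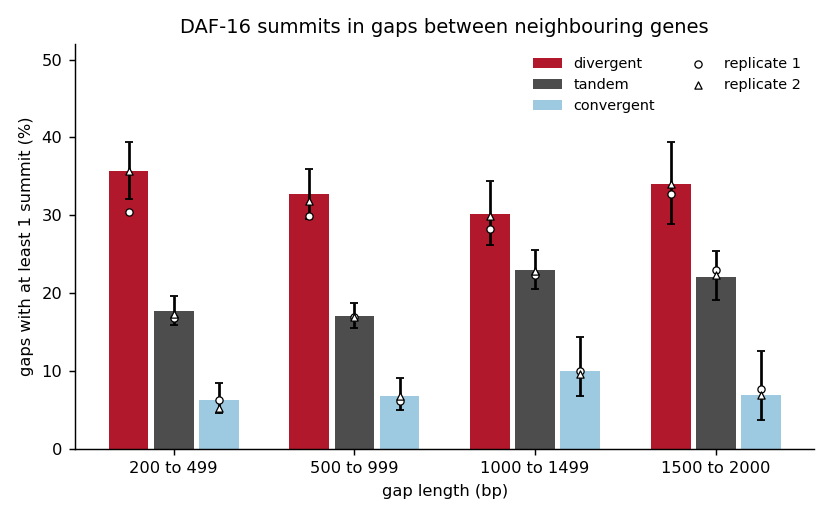
Share of gaps between neighbouring protein-coding genes that hold at least 1 summit (vertical axis, %) by gap length (bp) and orientation. Bars are the IDR list with Wilson 95% intervals, open circles and triangles the strongest peaks of replicates 1 and 2. Divergent gaps, at 30.1% to 35.6%, stand above tandem gaps, at 17.05% to 22.98%, in all 4 length classes.

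Summits were spread over the space between the starts and beyond it, within the limits that the rule sets on their position. The distance to the nearer start was a median of 140 bp (interval 133 to 149 bp) for divergent peaks and 218 bp (207 to 226 bp) for other promoter peaks, and it is bounded by the spacing in the first group. The shares by location that follow are shaped by the same limits. Of the 822 summits, 620 were intergenic (75.4%), against 60.6% of other promoter peaks, 78 lay in a 5' UTR (9.49% against 7.98%), 59 in an intron (7.18% against 18.6%) and 14 in a coding exon (1.70% against 4.78%). On a scale from 0 at the nearer start to 0.5 at the midpoint, the median summit stood at 0.26 (interval 0.25 to 0.28). The middle 50% of the interval between the starts held 434 summits (52.8%, interval 49.4% to 56.2%), and 98 (11.9%) lay outside the interval, within the 300 bp allowed into a gene. The nearer start was that of the minus-strand gene for 395 peaks and that of the plus-strand gene for 426. The peak interval itself, a median of 273 bp wide, covered both starts for 66 peaks and 1 of them for 330.

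**Figure D3:**
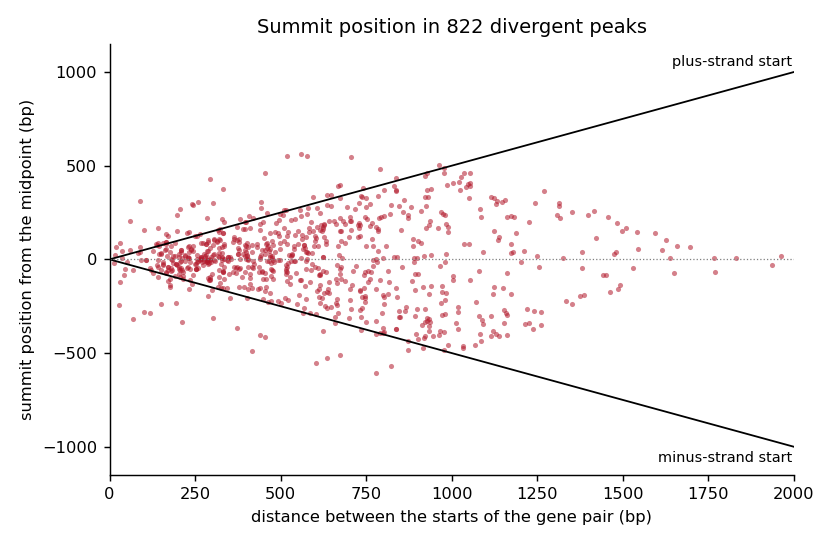
Position of each divergent summit relative to the midpoint between the starts (vertical axis, bp, positive towards the plus-strand gene) against the distance between the starts (horizontal axis, bp). Each point is 1 of 822 peaks and the solid lines mark the starts. Most points lie between the lines, and 98 lie outside them.

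The gene nearest to a summit was not always the same in both replicates. Of 645 divergent peaks whose replicate summits could be assigned to a nearer start, 578 had the same one in both (89.6%, interval 87.02% to 91.7%). For starts up to 200 bp apart the share was 52 of 65 (80.0%), and for starts over 600 to 1000 bp apart 197 of 206 (95.6%). The replicate summits of a divergent peak were a median of 29 bp apart (interval 26 to 31 bp). Each replicate summit was taken only within 100 bp of the divergent summit. This tolerance limits that distance and, above all at wide spacing, a change of the nearer start. Its part in the rise with spacing was not tested. With a tolerance of 200 bp, the same nearer start was found in 88.5%.

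A pair of starts could also hold more than 1 peak. Of the bound pairs, 42 held 2 divergent peaks, with summits 200 to 1175 bp apart (median 526.5 bp), and in 29 of them 1 summit was nearer each of the innermost starts. In 27 of the 42 pairs both peaks had a summit in both replicates. In several pairs the summits lay only 200 to 208 bp apart, less than the median peak width of 273 bp. An example is iff-2 and F54C9.14, with signals of 339 and 45.1. Whether such close summits mark separate sites was not tested. The pair with the strongest peaks was maa-1, an acyl-CoA-binding protein gene, and C18D11.3, whose starts are 922 bp apart. One summit lay 54 bp upstream of maa-1 (505, with 273 in replicate 1 and 218 in replicate 2), and the other lay 18 bp upstream of C18D11.3 (658, with 344 and 272). The nuclear hormone receptor gene nhr-80, which takes part in the control of fatty acid desaturation, had a summit 25 bp upstream (375, with 168 and 208), and a second one in the same region lay 351 bp upstream of H10E21.1 (216, with 99.8 and 105). Between ugtp-1 and sma-2, a pair chosen after its values were seen and including a Smad gene of the body size pathway, the summit 101 bp from ugtp-1 had 159 and that 4 bp from sma-2 had 398. The stronger peak of a pair had a median of 1.77 times the signal of the weaker.

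The sequences under divergent summits differed from those under other promoter peaks most in the GATA site and the DAE, less in the GAGA repeat and the E-box, and not detectably in the DBE. A GATA site lay within 75 bp of 223 of 822 divergent summits (27.1%, interval 24.2% to 30.3%), against 1662 of 3871 other promoter summits (42.9%, 41.4% to 44.5%) and 45.1% of summits outside promoters. The difference from other promoter peaks was -15.8 percentage points (Newcombe interval -19.1 to -12.3). All nuclear peaks together held it in 42.5%. The DAE was found at 114 divergent summits (13.9%, 11.7% to 16.40%), against 876 other promoter summits (22.6%, 21.3% to 23.97%) and 21.8% of all nuclear peaks. The difference was -8.76 points (-11.3 to -5.92). GATA sites outside a DAE were also fewer, at 13.3% of divergent and 20.3% of other promoter summits, a difference of -7.04 points (-9.55 to -4.26).

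The DBE stood at 70 divergent summits (8.52%, interval 6.80% to 10.6%), at 355 other promoter summits (9.17%, 8.30% to 10.1%) and at 8.94% of all nuclear peaks. The difference between the first and the second was -0.65 points, with an interval of -2.62 to 1.62 points, which holds 0. Divergent summits with a DBE but no GATA site made up 5.72%, against 5.63% of other promoter summits, while 67.2% of divergent summits and 51.4% of the others had neither. The median signal was 171 for the divergent peaks with a DBE and no GATA site and 101 for those with neither, against 173 and 93.4 among other promoter peaks. The E-box CACGTG was found at 4.14% against 6.12%, a difference of -1.99 points (-3.40 to -0.25). The GAGA repeat GAGAGA was found at 20.3% against 24.02%, a difference of -3.71 points (-6.66 to -0.54). The heat shock element was found at 6.57% against 5.97%, a difference of 0.60 points (-1.09 to 2.63). The reversed letters of the DBE, taken as a control of base content, were found at 3.77% and 4.21%.

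**Figure D4:**
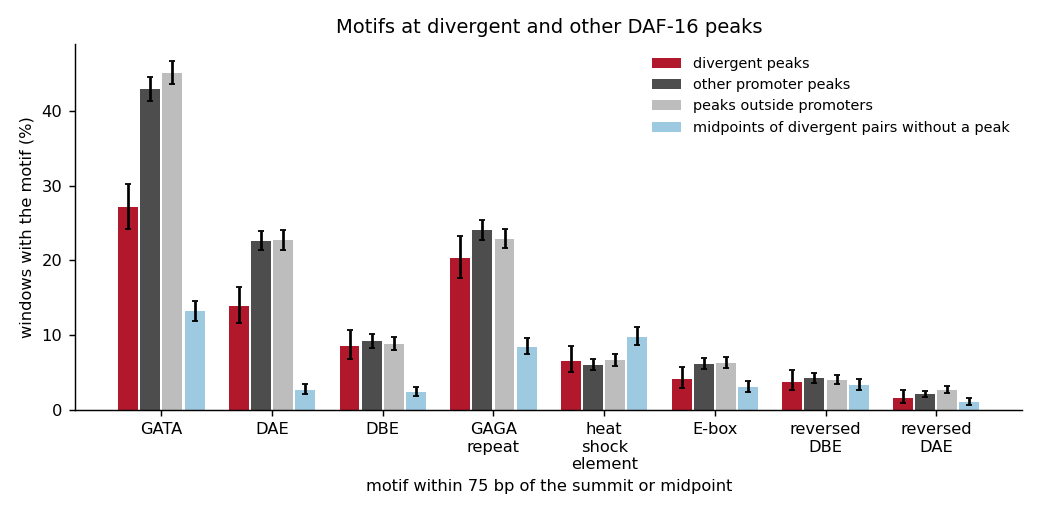
Share of windows with each motif (vertical axis, %) within 75 bp of the summit for divergent peaks, other promoter peaks and peaks outside promoters, and within 75 bp of the midpoint for divergent pairs without a peak. Error bars are Wilson 95% intervals. GATA and DAE are lower at divergent peaks (27.1% and 13.9%) than at other promoter peaks (42.9% and 22.6%), and the DBE is at 8.52% and 9.17%.

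The lower GATA share was present in each replicate. With the strongest peaks of replicate 1, 26.4% of 762 divergent and 42.1% of 3848 other promoter summits had a GATA site, a difference of -15.7 points (-19.1 to -12.1). With those of replicate 2, the shares were 25.7% of 810 and 40.4% of 3843, a difference of -14.7 points (-18.02 to -11.3). Among peaks with a summit in both replicates the shares were 26.2% and 45.9%, and among the rest they were 30.7% and 32.03%, a difference of -1.35 points (-8.49 to 6.46). In the weakest 20% of all nuclear peaks the shares were 26.2% and 26.9%, and in the 4 stronger classes of equal size the difference ran from -22.9 to -12.8 points.

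Base content and gene content moved with the motif shares. The median GC content within 75 bp was 39.1% at divergent and 37.7% at other promoter summits. In each of 5 classes of GC content the GATA share was lower at divergent summits, with differences of -18.1 to -3.60 points, and in 3 of them the interval excluded 0. At over 40% to 45% GC it was 16.8% of 155 divergent against 34.9% of 742 other promoter summits. In each of 6 classes of distance to the nearest start it was lower too, with differences of -19.5 to -6.16 points. Among summits with no listed gene in reach, the shares were 30.1% of 475 and 43.7% of 3110. By spacing, the share was 25.6% of 82 summits for starts up to 200 bp apart, 20.3% over 200 to 400 bp, 19.5% over 400 to 600 bp, and 34.6%, 34.6% and 33.6% in the 3 wider classes.

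At divergent summits, the GATA site, DAE, DBE and GAGA repeat were more frequent than at the midpoints of divergent pairs without a peak. The heat shock element was not. These midpoints were not matched to the summits in position or spacing. Some of those pairs have another gene between the starts, where a midpoint can fall. At divergent summits 27.1% of windows had a GATA site, 13.9% a DAE and 8.52% a DBE, against 13.2%, 2.68% and 2.38% at the midpoints of the 2352 pairs without a divergent peak. The GAGA repeat stood at 20.3% and 8.46%, a difference of 11.9 points (8.99 to 14.9). The heat shock element stood at 6.57% and 9.78%, a difference of -3.21 points (-5.17 to -0.99), and the E-box difference of 1.08 points (-0.32 to 2.78) had an interval that held 0. Over the whole interval of pairs 100 to 1000 bp apart, the DBE occurred 0.284 times per kb in 679 bound pairs and 0.159 times per kb in 1155 pairs without a peak. The DAE occurred 0.452 and 0.272 times per kb, and the GATA site 1.496 and 1.198 times. The reversed letters of the DBE occurred 0.252 and 0.288 times per kb. At least 1 DBE was thus present in 13.4% of bound pairs (interval 11.0% to 16.17%) and in 7.62% of the others (6.23% to 9.29%).

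By gene list, the share of divergent pairs with a peak was highest for ribosomal protein genes. Beside the 26.0% of all pairs, 14 of 33 lists had an interval above that share, 4 below it and 15 across it. Of 55 pairs with a cytosolic ribosomal protein gene, 39 held a divergent peak (70.9%, interval 57.9% to 81.2%), with 34 in each replicate's own strongest peaks. The strongest lay at rpl-12, rpl-20 and rpl-15 (364, with 239 and 150) and at rps-12, which faces ska-3 (321, with 157 and 149). Among pairs without a divergent peak were those of rpl-41.1 with M04F3.5 and of rps-12 with F54E7.9. In the latter, ska-3 lies between the starts, and the rps-12 start is the same as in the bound pair. Mitochondrial ribosomal protein genes had 23 of 37 pairs bound (62.2%), 16 in replicate 1 and 22 in replicate 2, the strongest at mrpl-35 (321).

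Other lists with an interval above that share included translation factors with 16 of 27 pairs (59.3%) and RNA splicing with 26 of 44 (59.1%). Oxidative phosphorylation had 19 of 34 (55.9%), chaperones 20 of 36 (55.6%), the proteasome 17 of 34 (50%) and membrane traffic 34 of 72 (47.2%). Also above it were autophagy and lysosome with 9 of 19 (47.4%) and nuclear pore and transport with 14 of 30 (46.7%). Related lists had intervals that held 26.0%, namely aminoacyl-tRNA synthetases with 7 of 19 (36.8%, interval 19.1% to 59.0%), the vacuolar ATPase with 4 of 10 (40%) and ubiquitin conjugation with 10 of 32 (31.2%). Some peaks joined genes of different lists. The peak between hsp-110, a chaperone gene, and rpn-3, a proteasome subunit gene, lay 247 bp and 197 bp from their starts (245, with 147 in replicate 1 and 104.2 in replicate 2). The peak between eef-1B.1, a translation elongation factor gene, and aco-2, the mitochondrial aconitase, had 298, with 158 and 136. That between eef-1A.1 and rfc-4, a subunit of the clamp loader of DNA replication, had 270, with 121 and 137. In all, 68 divergent peaks had both genes in a list, 273 had 1 and 481 had none.

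Metabolic and detoxification lists differed among themselves. Glycolysis, glycogen and the tricarboxylic acid cycle had 12 of 23 pairs bound (52.2%), among them idhg-2, a gene of mitochondrial isocitrate dehydrogenase, with 317. Fatty acid and lipid metabolism had 16 of 35 (45.7%), led by dgat-2 and acs-12, an acyl-CoA synthetase gene (393). UDP-glycosyltransferases had 8 of 16 (50%), with ugt-24 at 427 and ugt-41 at 425. Cytochromes P450 had 5 of 14 (35.7%, interval 16.3% to 61.2%) and oxidative stress and detoxification 7 of 24 (29.2%, 14.9% to 49.2%), with intervals that held 26.0%. Of 9 pairs with a gene from a list of known DAF-16-activated genes, 5 held a peak (55.6%, interval 26.7% to 81.1%). Among pairs within 1000 bp, the intervals of the UDP-glycosyltransferases (35.4% to 84.8%) and of the DAF-16-activated genes (25.05% to 84.2%) held the share of all such pairs, 36.8%.

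Among these known targets, the peak of sod-3 (WBGene00004932), the mitochondrial manganese superoxide dismutase, lay 133 bp upstream of its start and 908 bp upstream of a start of C08A9.3, inside an intron of longer C08A9.3 transcripts. Its signal was 234, with 124 in replicate 1 and 91.1 in replicate 2. The small heat shock protein genes hsp-16.2 and hsp-16.41, whose starts are 221 bp apart, had a peak 130 bp and 91 bp from them (203, with 57.5 and 131). Neither divergent copy of hsp-16.1 and hsp-16.48, with starts 349 bp and 311 bp apart, had a summit in any of the 4 lists. Those copies are near-identical, as are many histone genes, so the authors' read assignment there is uncertain. The peak of gst-2 and gst-4, glutathione S-transferases, had 133, with 85.99 and 51.6.

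**Figure D5:**
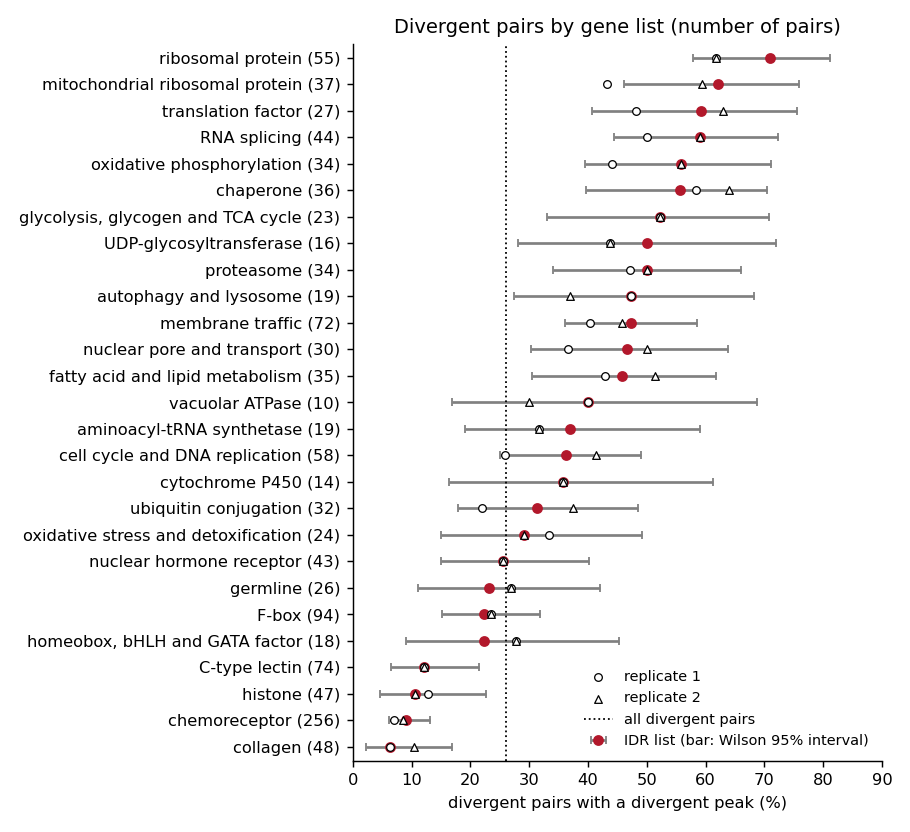
Share of divergent pairs within 2000 bp that hold a divergent peak (horizontal axis, %) for the 27 gene lists with at least 10 such pairs, the number of pairs in brackets. Filled points with Wilson 95% intervals are the IDR list, open circles and triangles the strongest peaks of replicates 1 and 2, and the dotted line is all pairs at 26.0%. Ribosomal protein pairs stand highest at 70.9% and collagen pairs lowest at 6.25%.

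The lists of chemoreceptor, C-type lectin, collagen, histone, F-box and nuclear hormone receptor genes were at or below the share of all pairs. This did not hold for every gene family, as the UDP-glycosyltransferases had an interval above that share. Of 256 pairs with a chemoreceptor gene, 23 held a divergent peak (8.98%, interval 6.06% to 13.1%). None of the 55 pairs of facing chemoreceptor genes did, which allows up to 6.53% by the Wilson interval, while 23 of the 201 with another partner did (11.4%, 7.75% to 16.6%). The strongest of these 23 were the peaks with icl-1, ugt-41, sma-10 and nhr-246 as the partner, and the summit was nearer the chemoreceptor gene in 12. C-type lectins had 9 of 74 pairs bound (12.2%), collagens 3 of 48 (6.25%), histones 5 of 47 (10.6%), F-box genes 21 of 94 (22.3%) and nuclear hormone receptors 11 of 43 (25.6%). The 3 collagen peaks faced rpl-5 (212), ugt-1 (89.4) and Y49F6B.2 (45.3).

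Spacing moved with these shares. The median distance between starts was 592 bp in ribosomal protein pairs, 1090 bp in chemoreceptor pairs, 1004 bp in collagen pairs and 799.5 bp over all pairs. Among pairs within 1000 bp only, where the rule covers the whole interval, a divergent peak was held by 38 of 44 ribosomal protein pairs (86.4%), 17 of 22 proteasome pairs (77.3%), 29 of 39 membrane traffic pairs (74.4%), 13 of 109 chemoreceptor pairs (11.9%) and 3 of 24 collagen pairs (12.5%), against 36.8% of all pairs. Histone pairs were close together, a median of 293 bp apart, and 5 of 34 within 1000 bp were bound (14.7%).

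Tissue lists had few divergent pairs. Intestinal genes had 0 of 7 pairs bound (interval up to 35.4%), among them elt-7, a GATA factor gene, and vit-6, a yolk protein gene. With the strongest peaks of replicate 2, 1 of the 7 was bound. Muscle had 0 of 3, neuronal genes 0 of 4, hypodermal genes 1 of 3 and germline genes 6 of 26 (23.1%, 11.0% to 42.1%). Insulin signalling had 1 of 8, the pair of par-5 and M117.3 (146, with 68.1 in replicate 1 and 64.2 in replicate 2). Neither age-1 nor daf-18 had a divergent peak. These counts cover divergent pairs only. Other promoter peaks with a listed gene in reach numbered 30 for intestinal, 6 for muscle and 7 for neuronal genes. They numbered 1 for hypodermal, 3 for germline and 17 for insulin signalling genes.

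Motif content differed between lists in both kinds of promoter peak. A GATA site lay within 75 bp of 1 of 39 divergent and 2 of 25 other promoter summits with a ribosomal protein gene in reach, and of 1 of 26 and 0 of 10 with a splicing gene. The oxidative phosphorylation list had none among 18 and 11. With a chemoreceptor gene in reach the counts were 15 of 24 divergent (62.5%) and 14 of 23 other promoter summits (60.9%), with a C-type lectin gene 6 of 8 and 22 of 26, and with an F-box gene 11 of 21 and 27 of 38. Membrane traffic had 3 of 34 and 9 of 39. A listed gene was in reach of 347 divergent summits and of 761 other promoter summits. The part of the gene lists and of base content in the lower GATA share was not tested beyond these counts and classes.

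Pairs of facing genes of the same named family held a peak in 25 of 193 cases (12.95%, interval 8.93% to 18.4%), against 801 of 2985 other pairs (26.8%, 25.3% to 28.5%). The strongest of the 26 peaks in them lay between the cytochrome P450 genes cyp-33C6 and cyp-33C7 (538, with 373 in replicate 1 and 164 in replicate 2), 862 bp from the first and 268 bp from the second. It was followed by fbxa-26 and fbxa-27 (376, with 205 and 154), the saposin-like genes spp-2 and spp-6 (299, with 194 and 97.5) and the histone genes his-61 and his-62 (272, with 162 and 93.2). Facing histone genes held a peak in 4 of 35 pairs and facing nuclear hormone receptor genes in 0 of 8. Families differed, as facing fbxa genes held one in 4 of 9 (44.4%, interval 18.9% to 73.3%).

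Membership turned on few base pairs at the edges. The summits nearest to the limits from inside were those between wht-7 and Y42G9A.3 (signal 65.2, exactly 1000 bp upstream of the second start), between fat-6 and ZK822.9 (131, 998 bp upstream) and between gbf-1 and immp-1 (111, 998 bp upstream). The nearest outside were those between R107.5 and cls-2 (88.3), between irg-8 and Y39D8A.1 (43.9), each 1003 bp upstream of a start, and between cup-2 and tag-353 (45.3, 1004 bp upstream).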

How the data were processed

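Peak lists on build ce11 were used as deposited. Per the labels, the deposited files give peaks and background regions of each replicate, a list of the same kind for the whole series, called pooled here, and the peaks that passed an IDR threshold. The sources used here do not name the aligner, the peak caller or the IDR threshold. The signal of each peak is a score that the authors deposited, on a scale that is not stated. The IDR list held 8777 peaks, of which 29 were mitochondrial and left out. Peak ends stayed within the chromosome lengths of the RefSeq genome of the same assembly.

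Starts were those of protein-coding transcripts in the Ensembl release 115 annotation of WBcel235, and the pair with the smallest spacing named a peak. Pairs were taken within 2000 bp even where another gene lay between them, and 2487 were of neighbouring, non-overlapping genes. A pair without a peak can thus share a start with a bound pair. Gaps were those between neighbouring, non-overlapping protein-coding genes. Each motif was looked for in both orientations, up to 75 bp from a summit. Shares carry Wilson intervals, differences of shares Newcombe intervals and medians order-statistic intervals, and no p-value was computed. Replicate values use each replicate's own strongest peaks, as many as the IDR list holds, or its nearest summit within 100 bp.

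The divergent peaks, the 33 lists and the tests were chosen with earlier results of these data known. The lists match gene symbols by pattern. Those of chemoreceptor, splicing and cell cycle genes were narrowed after their counts had been seen, to drop symbols of other gene families. Genes were named by rule: the 20 strongest peaks, the strongest with facing genes of the same family or with both genes in lists, the 4 strongest of each list with up to 2 pairs without a peak, 5 pairs with 2 peaks, the narrowest and widest, those at the limits, and the hsp-16, hsp-110, nhr-68 and dgat-2 pairs. Counting, motif search and intervals were tested on simulated data. The tools were matplotlib 3.10.9, statsmodels 0.14.6, scipy 1.17.1, pandas 2.3.3, numpy 2.4.6 and Python 3.11.15.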

Additional observations from a re-analysis of the deposited data

How the results depend on the processing

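The differences in GATA site, DAE and gap shares taken over all peaks or gaps kept their sign under the alternatives, and the intervals of those with one excluded 0. Within single classes this was not so: the DAE difference was below 0 in 4 of 5 GC classes (0.51 points in the other), and the GATA interval held 0 in 2 GC classes, 2 distance classes and 1 signal class, and among peaks not in both replicates. Over the alternatives the 3 differences ran from -21.6 to -12.1 points, from -12.8 to -6.77 points and from 6.79 to 16.7 points. Weighted within classes of GC content, an alternative chosen after the data were seen like those by distance and by listed genes, the GATA difference was -12.1 points and the DAE difference -6.77. The DBE difference (-1.82 to -0.34 points) and the log2 ratio of median signals (-0.12 to -0.05) had intervals that held 0 throughout.

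Limits of 500 bp upstream and 100 bp downstream left 485 divergent peaks and a median position of 0.32, the stronger 50% of peaks left 404, and the outermost start of each gene left 761. The share of bound pairs was 13.2% with the stronger 50% of peaks, 32.9% with all pooled peaks and 29.2% for adjacent genes only. With 1 replicate left out, divergent peaks numbered 762 to 810, bound pairs made up 23.2% to 25.6%, the gap difference was 11.4 to 13.96 points, the DAE difference -9.38 to -8.87, the GATA difference -15.7 to -14.7, the DBE difference -1.46 to -0.34, the log2 signal ratio -0.06 to -0.05 and the median position 0.25 to 0.26. The share of divergent peaks with a summit in both replicates was 65.6% at a tolerance of 50 bp, 83.6% at 200 bp and 94.1% among the stronger 50%. The replicates had the same nearer start in 91.8% at 50 bp and in 93.3% for starts at least 400 bp apart. The cause of these changes was not tested. Some alternatives admit fewer peaks, pairs or bases. No paired analysis was possible because there is 1 group. Depth limits could not be set without read counts.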
